A study of Rattus norvegicus with 6 samples.

Results

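The glucocorticoid receptor gene Nr3c1 and 8 classic glucocorticoid target genes (Tsc22d3, Fkbp5, Zbtb16, Ddit4, Klf9, Sgk1, Glul and Mt1) were followed in cultures of the rat mandibular condyle, the cartilage-covered end of the lower jaw. The genes were chosen by symbol, and all 9 were found among the 17954 genes in the files. All 9 passed the filter on low counts, which left 13052 genes. Condylar cartilage organoids kept in a special chondrogenic medium (3 libraries) were compared with flat (2D) cultures of condylar chondrocytes, the cells of cartilage, grown in DMEM that held antibiotics and 20% fetal bovine serum (3 libraries). The cells from which the organoids were grown, strain, age, time in culture and the recipe of the chondrogenic medium are not given in the labels, so it is not known here whether that medium contained a glucocorticoid. Culture format and medium differed together between the groups and cannot be told apart. Whether the chondrogenic medium held serum is not given either, and the labels do not tell if replicate libraries stem from different animals or dishes. The p-values therefore reflect only how far these samples spread, which may be technical.

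Glucocorticoids such as cortisol and dexamethasone enter cells and bind the receptor encoded by Nr3c1, which heat shock protein chaperones hold ready in the cytoplasm. The occupied receptor moves to the nucleus, binds DNA at glucocorticoid response elements and switches on genes such as Tsc22d3, Fkbp5 and Zbtb16, while it represses many inflammatory genes. Dexamethasone is a common additive of chondrogenic media, and an excess of glucocorticoid slows growth of cartilage in the body. Several of the 8 target genes also answer to other signals, for example Ddit4 to low oxygen, Mt1 to zinc and Sgk1 to serum.

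Library totals ran from 18592574 to 26472447 estimated counts. Organoid libraries varied more than 2D culture libraries, with Spearman correlations of 0.847 to 0.913 among organoids against 0.992 to 0.994 among 2D cultures. Col1a1 alone took 20.0% to 26.4% of the counts in organoids and 3.31% to 4.35% in 2D culture, so that levels set on total counts differ from those scaled by TMM. Of 8 chondrocyte markers 7 were tested and 6 rose, with a summed level (CPM, counts scaled to library size by TMM) of 11481 to 98739 CPM in organoids and 1499 to 1601 CPM in 2D culture, and organoid 2 held the lowest sum of the 3 organoids. All 8 osteoblast markers rose too, with sums of 20538 to 27378 CPM in organoids against 605 to 677 CPM in 2D culture. Of 4 tested adipocyte markers 1 rose, the fatty acid carrier Fabp4 (7.81 ± 2.87 CPM in organoids and 0.318 ± 0.0733 CPM in 2D culture, log2 fold change 4.597 ± 0.66, called in all 14 alternatives), while the list summed to 6.58 to 16.1 CPM in organoids and 3.58 to 4.78 CPM in 2D culture, with Lep at 0 in every library. Of 3 tested macrophage and osteoclast markers 1 rose, the phosphatase Acp5 (45.6 ± 46.4 CPM in organoids, highest in organoid 1, and 4.03 ± 0.424 CPM in 2D culture, log2 fold change 3.501 ± 0.76, and 2.25 without organoid 1), not called without 2D culture 1, 2 or 3. That list summed to 103 to 299 CPM in organoids and 139 to 142 CPM in 2D culture, with Adgre1 at 0 in every library and Tnfrsf11a at 0 in organoids. Of 2 tested endothelial markers Esam, a junction protein, rose (26.6 ± 23.0 CPM in organoids and 0.420 ± 0.157 CPM in 2D culture, log2 fold change 5.97 ± 0.83, called in all 14 alternatives), and the list summed to 9.56 to 57.5 CPM in organoids and 0.797 to 1.27 CPM in 2D culture. Of 4 tested skeletal muscle markers Tnnt3 rose (4.75 ± 1.12 CPM in organoids and 1.11 ± 0.223 CPM in 2D culture) and Myh3 fell (1 rounded count over the 3 organoids and 138 over the 3 2D cultures), neither called without 2D culture 1, 2 or 3, and the list summed to 8.70 to 79.0 CPM in organoids and 5.09 to 8.71 CPM in 2D culture. In such bulk samples, fewer cells of a type and less RNA per cell cannot be told apart, and the part of cell makeup in the results below was not tested.

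The 9 genes did not move as one block. In organoids 5 of them rose (Nr3c1, Zbtb16, Ddit4, Klf9 and Mt1), 1 fell (Glul) and 3 did not pass the test (Tsc22d3, Fkbp5 and Sgk1). Genes count as changed where the quasi-likelihood test of edgeR, adjusted over all genes, gave a p under 0.05. By the same test 14.9% of all tested genes rose and 12.6% fell, so many genes of every kind differed between the groups. The median log2 fold change (organoid over 2D culture) of the 9 genes was 1.001, and that of all tested genes was -0.033. In 8 of the 9 genes the organoid libraries did not overlap the 2D culture libraries, 6 with organoids higher and 2 with organoids lower, whereas 53.5% of all tested genes showed no overlap (23.4% higher and 30.2% lower in organoids). Calls fell when a 2D culture was left out. With any 1 of 2D culture 1, 2 and 3 left out, only Ddit4 remained called higher and Glul called lower among the 9. Over all genes, calls fell too, from 1944 to between 703 and 774 higher and from 1650 to between 399 and 437 lower. The fitted changes of the 9 moved little, that of Zbtb16 from 5.19 to between 4.99 and 5.28. Without any 1 organoid, 5 to 6 of the 9 genes were called higher. Total library size in place of TMM lowered the median change of all genes by -0.61 and gave 3 genes higher (Zbtb16, Ddit4 and Mt1) and 2 lower (Glul and Sgk1).

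**Figure D1:**
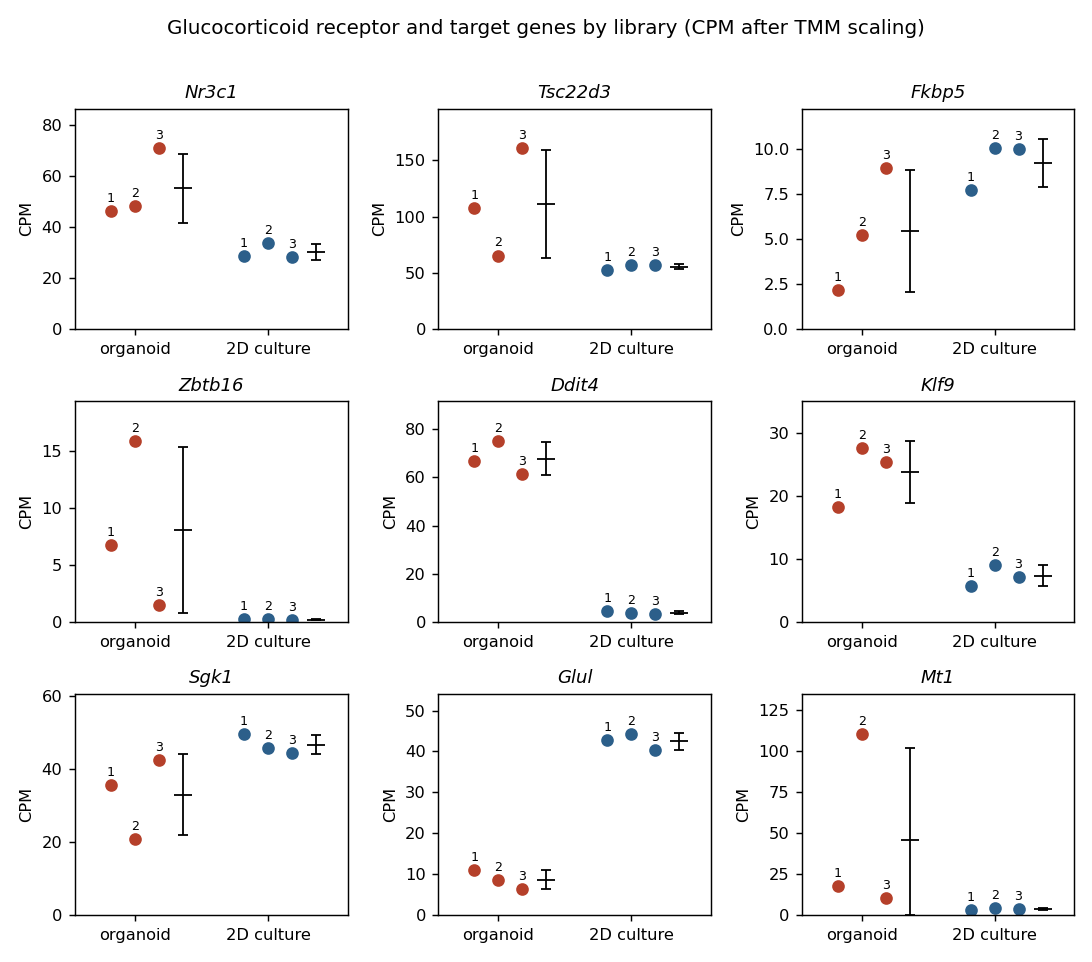
Levels of the receptor gene and its 8 targets in each library, in CPM (TMM-scaled, vertical axis from 0), with organoids left and 2D cultures right; numbers mark the replicate, and the bar beside each group is the mean with SD (n = 3, cut at 0). Ddit4 is high and even in the 3 organoids, Mt1 and Zbtb16 peak in organoid 2, and Fkbp5 is the gene whose groups overlap.

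Nr3c1 (gene ID 24413), the receptor itself, stood at 46.3, 48.3 and 70.7 CPM in organoid 1, 2 and 3, against 28.7, 33.7 and 28.3 CPM in 2D culture 1, 2 and 3. Every organoid lay above every 2D culture, and organoid 3 stood above the other 2 organoids. The mean was 55.1 ± 13.6 CPM in organoids and 30.2 ± 3.05 CPM in 2D culture (SD, n = 3 each), a log2 fold change of 0.87 ± 0.25 (SE; 95% interval 0.28 to 1.45; edgeR adjusted p = 0.0414). This call was lost without 2D culture 1, 2 or 3 (edgeR adjusted p = 0.174, 0.122 and 0.181) and with total library size (log2 fold change 0.27, edgeR adjusted p = 0.535), and over 14 alternative settings 7 kept it (adjusted p of edgeR, DESeq2 or limma from 0.00707 to 0.535). The mineralocorticoid receptor gene Nr3c2, whose protein also binds glucocorticoids, had 0.884, 0 and 0 CPM in organoids, against 8.77, 8.31 and 10.99 CPM in 2D culture. Its groups did not overlap, but it did not pass (log2 fold change -4.99 ± 1.56, edgeR adjusted p = 0.0548), and 7 of 14 alternatives called it lower (adjusted p from 0.00179 to 0.169). All 15 of its organoid counts were in organoid 1, and without that library the fitted change was -10.98 (edgeR adjusted p = 0.00484).

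Among 8817 other genes with at least 10 CPM on average, those whose level ran most like Nr3c1 over the 6 libraries were Ppdpf, Rab40c and Smad4, a shared mediator of TGF-beta and BMP signals, with Pearson r of 0.999, 0.997 and 0.996 on the log2 scale. For Tsc22d3 they were Ctdspl2, Fam13c and Zfp445, with r of 0.996, 0.995 and 0.995. The 6 libraries form 2 groups, so these values hold the group difference as well as the spread within groups and describe likeness only. Smad4 stood at 22.4, 27.8 and 49.5 CPM in organoids, against 10.9, 13.6 and 9.75 CPM in 2D culture.

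Chaperones and cofactors that prepare the receptor were measured beside it. Of 20 such genes 2 rose, 6 fell and 12 did not pass, with a median log2 fold change of -0.36. The share that rose was below the 14.9% of all tested genes, and the share that fell was above their 12.6%. The genes that fell were chaperones and co-chaperones: Fkbp4, which favours receptor activity and is the close relative of Fkbp5, Hspa4, Dnajb1, Stip1, which links HSP70 to HSP90, Hsp90aa1 and Hspa8. Fkbp4 had 67.5, 47.7 and 56.9 CPM in organoids, against 164, 156 and 166 CPM in 2D culture (log2 fold change -1.50 ± 0.20, edgeR adjusted p = 0.00358), and every organoid lay below every 2D culture. Hspa4 averaged 69.8 ± 17.9 CPM in organoids and 189 ± 15.3 CPM in 2D culture (log2 fold change -1.44 ± 0.24). Hsp90aa1 and Hspa8 had fractional counts in all 6 libraries, so reads were shared with other genes. The corepressor gene Ncor1 rose (110 ± 49.7 CPM in organoids against 37.7 ± 4.76 CPM in 2D culture). Leaving out any single 2D culture gave 0 higher and 2 lower, while scaling by total library size gave 0 higher and 9 lower.

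Of 6 tested genes of steroid supply 1 rose (Hsd11b1), 1 fell (Abcb1a) and 4 did not pass. These shares, 16.7% in each direction, were near the 14.9% higher and 12.6% lower among all tested genes. Without any of 2D culture 1, 2 and 3 none of the 6 was called in either direction. Without organoid 2 or 3, 2 rose, and without organoid 1 or 3, 2 fell. Supply within the cell was followed through Hsd11b1 (gene ID 25116), the enzyme that turns inactive cortisone or 11-dehydrocorticosterone into the active hormone. Hsd11b1 had 130, 638 and 127 CPM in organoid 1, 2 and 3, against 54.0, 66.7 and 54.9 CPM in 2D culture. All organoids were above all 2D cultures, and organoid 2 was far above the others. It rose by 2.35 ± 0.67 on the log2 scale (edgeR adjusted p = 0.0422), by 1.18 without organoid 2 (edgeR adjusted p = 0.00297), and it did not pass without 2D culture 1, 2 or 3 (edgeR adjusted p = 0.15, 0.123 and 0.144) or with total library size (edgeR adjusted p = 0.0865, range over alternatives 0.00058 to 0.15). Its counts were fractional in all 6 libraries, so reads are shared with other genes. Hsd11b2, which inactivates the hormone, had 0 counts in organoids, where 3 counts would be 0.142 to 0.18 CPM, and at most 0.337 CPM in 2D culture, and was not tested. Abcb1a, an efflux pump that also carries steroids, fell to 0.508, 0.541 and 0.0473 CPM in organoids, against 9.89, 7.07 and 11.03 CPM in 2D culture (log2 fold change -4.65 ± 0.91, edgeR adjusted p = 0.0127), with fractional counts in 4 libraries and no call without 2D culture 1, 2 or 3 (edgeR adjusted p = 0.0687, 0.0547 and 0.073; range over alternatives 1.49e-07 to 0.073).

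Among the targets, Tsc22d3 and Fkbp5 are those most often read as markers of receptor activity. Tsc22d3 (gene ID 83514), which encodes the anti-inflammatory leucine zipper protein GILZ, had 107, 65.5 and 161 CPM in organoids, against 52.9, 56.9 and 56.8 CPM in 2D culture. Every organoid stood above every 2D culture, but organoid 2 only slightly. The means were 111 ± 47.7 CPM in organoids and 55.6 ± 2.28 CPM in 2D culture, and the gene did not pass (log2 fold change 1.001 ± 0.33, 95% interval 0.21 to 1.79, edgeR adjusted p = 0.065). It passed without organoid 2 (log2 fold change 1.32, edgeR adjusted p = 0.00594), with DESeq2 (adjusted p = 0.0181) and with limma-voom weighted by group (adjusted p = 0.0315), while the range over 14 alternatives reached 0.425.

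Fkbp5 (gene ID 361810), a co-chaperone that lowers the affinity of the receptor and so closes a feedback loop, had 2.18, 5.23 and 8.94 CPM in organoids, against 7.69, 10.03 and 9.97 CPM in 2D culture. Organoid 3 lay within the 2D culture range and the other 2 organoids below it. The log2 fold change was -0.76 ± 0.58 (95% interval -2.13 to 0.61, edgeR adjusted p = 0.366), and no alternative setting out of 14 called it in either direction (adjusted p from 0.0827 to 0.586). The fitted changes of Fkbp5 and Tsc22d3 had opposite signs, and neither passed.

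Zbtb16 (gene ID 353227), a zinc finger transcription factor also called PLZF, had 6.78, 15.9 and 1.47 CPM in organoids, against 0.245, 0.245 and 0.155 CPM in 2D culture. These are 115, 264 and 31 counts in organoids and 8, 8 and 5 counts in 2D culture, where 3 counts correspond to about 0.0917 to 0.0929 CPM. Every organoid was above every 2D culture, and the organoids differed 10.8-fold among themselves. The gene rose by 5.19 ± 1.04 on the log2 scale (95% interval 2.72 to 7.66, edgeR adjusted p = 0.0136), the largest fitted change of the 9. It lost the call without 2D culture 1, 2 or 3 (edgeR adjusted p = 0.0742, 0.0707 and 0.0779) and with limma-voom (adjusted p = 0.0534; range over alternatives 5.28e-07 to 0.0779), and without organoid 2 the change was 4.28.

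Ddit4 (gene ID 140942), which encodes REDD1, an inhibitor of the growth kinase complex mTORC1, rose most evenly. It had 66.6, 74.9 and 61.5 CPM in organoids, against 4.47, 3.73 and 3.34 CPM in 2D culture. The organoids lay close together, far above the 2D cultures, and the SD of log2 CPM among organoids was at percentile 5 of all tested genes. The log2 fold change was 4.13 ± 0.25 (95% interval 3.53 to 4.73, edgeR adjusted p = 0.000268), and all 14 alternatives called it, with changes of 3.52 to 4.24. Its paralog Ddit4l, another mTORC1 inhibitor, had 43.5, 55.6 and 43.6 CPM in organoids, against 3.46, 3.36 and 3.47 CPM in 2D culture (log2 fold change 3.79 ± 0.25, edgeR adjusted p = 0.000343), also with no overlap. Of 14 other genes of the mTORC1 circuit, Ddit4l among them, 3 rose (Ddit4l, the autophagy kinase Ulk1 by 3.40 ± 0.37 and the S6 kinase gene Rps6kb1 by 1.56 ± 0.20), 1 fell (Akt1s1, an mTORC1 component, with log2 fold change -1.06 ± 0.28) and 10 did not pass. The circuit thus had 21.4% higher and 7.14% lower (14.9% and 12.6% over all tested genes). Akt1s1 lost its call without 2D culture 1, 2 or 3 and without organoid 1 (edgeR adjusted p = 0.111, 0.112, 0.103 and 0.0712), and the circuit had 5 genes higher when organoid 2 was left out. Its genes called lower numbered 2 without organoid 3 and 4 when scaled by total library size.

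Ddit4 is also known as a target of hypoxia-inducible factors and of the integrated stress response. Of 18 hypoxia genes 17 rose (94.4%, against 14.9% of all tested genes) and 1 did not pass, with a median log2 fold change of 4.01. Their summed levels were 9301 to 17763 CPM in organoids against 598 to 625 CPM in 2D culture. Ca12 and Egln3 had the largest changes, with Egln3 at 136, 62.1 and 112 CPM in organoids and 0.184, 0.0917 and 0.310 CPM in 2D culture. Among 13 genes of the integrated stress response 2 rose (Vldlr by 2.66 ± 0.31 and Atf3 by 1.91 ± 0.36), 3 fell (Trib3 with log2 fold change -1.79 ± 0.37, Phgdh with -1.73 ± 0.50, and Ppp1r15a) and 8 did not pass, and without any of 2D culture 1, 2 and 3 none of the 3 was called. The shares were 15.4% higher and 23.1% lower, against 14.9% and 12.6% of all tested genes. Atf3 lost its call without 2D culture 2 or 3 (edgeR adjusted p = 0.068 and 0.0734). Without organoid 1, 5 of these genes rose, and without organoid 3, 5 fell, Phgdh not among them (edgeR adjusted p = 0.0635). The part of either pathway in the rise of Ddit4 was not tested.

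The 250 bases before the start of Ddit4 are shown because this gene had the firmest change. Capitals mark ACGTG, a form of the core of the hypoxia response element, and other forms of that core were not searched. They lie at GRCr8 chr20:28437038-28437287 on the minus strand (sequence from RefSeq, printed 5′ to 3′).
Ddit4: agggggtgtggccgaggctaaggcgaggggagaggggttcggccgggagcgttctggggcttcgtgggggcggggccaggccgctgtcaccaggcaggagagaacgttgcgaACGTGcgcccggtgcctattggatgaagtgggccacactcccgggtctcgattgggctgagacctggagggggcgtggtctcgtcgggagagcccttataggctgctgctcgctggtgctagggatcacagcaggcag
One match begins 138 bases before the start. ACGTG, searched on both strands, occurs at least once in 16.6% of 33465 such windows of rat genes, so a single match is common. A metal response core overlaps the same stretch. Neither the full glucocorticoid response element (AGAACA and TGTTCT, 3 bases apart) nor its core (GNACA and TGTNC, 3 bases apart), each the same on both strands, occurs in any of the 14 windows found for 8 of the 9 genes, and they occur in 0.0120% and 0.374% of all windows, so their absence here says nothing about binding elsewhere. Zbtb16 had no entry.

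Klf9 (gene ID 117560), a transcription factor and feedback regulator in glucocorticoid responses, had 18.3, 27.7 and 25.5 CPM in organoids, against 5.76, 9.05 and 7.21 CPM in 2D culture. The groups did not overlap, and the organoids spread no wider than the 2D cultures (1.51-fold and 1.57-fold between highest and lowest). Klf9 rose by 1.70 ± 0.33 on the log2 scale (95% interval 0.91 to 2.48, edgeR adjusted p = 0.0121). It did not pass without 2D culture 1, 2 or 3 (edgeR adjusted p = 0.0746, 0.0505 and 0.0755) or with total library size (log2 fold change 1.11, edgeR adjusted p = 0.0751; range over alternatives 1.4e-05 to 0.0755). Klf9 and Per1 also follow the circadian clock, whose genes are themselves open to glucocorticoids. Of 16 clock genes 8 rose and 8 did not pass, with a median log2 fold change of 1.44. The share that rose was above the 14.9% of all tested genes, and none fell, against 12.6%. Bhlhe41 had 13.1, 39.8 and 31.3 CPM in organoids, against 2.88, 3.52 and 2.07 CPM in 2D culture (log2 fold change 3.31 ± 0.51), and Bhlhe40 rose by 2.03 ± 0.47. The number of clock genes that rose was 5 with total library size and 4 when any single 2D culture was left out, and Bhlhe40 lost its call without 2D culture 1, 2 or 3 (edgeR adjusted p = 0.091, 0.0972 and 0.0917). The hour of harvest is not given, and the part of the clock in the change of Klf9 was not tested. The paralog Klf13 rose by 3.77 ± 0.83, with 2.30, 9.25 and 4.16 CPM in organoids and 0.490, 0.397 and 0.248 CPM in 2D culture, and lost its call without 2D culture 1, 2 or 3 (edgeR adjusted p = 0.0906, 0.0985 and 0.107), while without organoid 2 its change was 3.13.

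**Figure D2:**
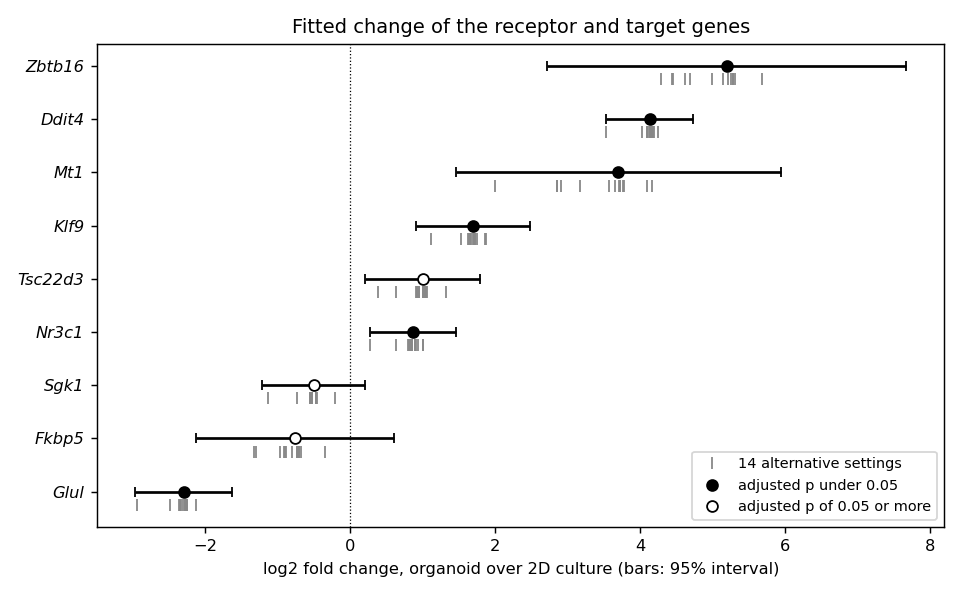
Fitted log2 fold change, organoid over 2D culture, of the 9 genes with its 95% interval; filled points have an edgeR adjusted p under 0.05, and grey ticks give the fitted change in the alternative settings (14, or 13 for Zbtb16). Ddit4 and Glul have narrow intervals away from 0, while Zbtb16 and Mt1 have wide ones and those of Sgk1 and Fkbp5 cross 0.

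Sgk1 (gene ID 29517), the serum- and glucocorticoid-regulated kinase that controls ion channels and cell survival, had 35.6, 20.8 and 42.4 CPM in organoids, against 49.6, 45.9 and 44.5 CPM in 2D culture. Every organoid lay below every 2D culture, organoid 3 only slightly. The means were 33.0 ± 11.1 CPM in organoids and 46.7 ± 2.64 CPM in 2D culture, and the gene did not pass (log2 fold change -0.50 ± 0.30, 95% interval -1.21 to 0.21, edgeR adjusted p = 0.253). With total library size it was called lower (log2 fold change -1.13, edgeR adjusted p = 0.0292), the only one of 14 alternatives that did so (range 0.0292 to 0.465). Its paralog Sgk3 rose: it had 66.6, 68.0 and 86.6 CPM in organoids, against 6.71, 7.95 and 7.68 CPM in 2D culture, with no overlap (log2 fold change 3.31 ± 0.24, edgeR adjusted p = 0.000411). Among 10 tested genes upstream and downstream of the kinase 4 rose (40.0%, against 14.9% of all tested genes) and 6 did not pass. Ndrg1, a phosphorylation target of the kinase that low oxygen also induces, rose by 4.93 ± 0.27 and averaged 1714 ± 304 CPM in organoids and 56.1 ± 3.84 CPM in 2D culture. Foxo3, a transcription factor that the kinase inactivates, rose by 3.81 ± 0.26. Genes of this list called higher numbered 6 without organoid 1 and 5 without organoid 2. They numbered 3 when organoid 3 or any single 2D culture was left out. Scaling by total library size also gave 3.

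Serum was present in 2D culture at 20%, while that of the organoid medium is not given. Beside Sgk1, 16 serum and immediate early genes were tested. Of these 2 rose, 6 fell and 8 did not pass, with a median log2 fold change of -0.88. Shares called were 12.5% higher and 37.5% lower (14.9% and 12.6% over all tested genes). Hbegf, an EGF receptor ligand, fell to 2.00, 2.94 and 0.331 CPM in organoids, against 76.3, 61.9 and 60.5 CPM in 2D culture. Junb and Fos moved the other way, with log2 fold changes of 1.83 ± 0.27 and 1.76 ± 0.36. Leaving out 2D culture 1, 2 or 3 left 1 higher and 4, 5 and 5 lower, without organoid 1 there were 4 higher, and total library size gave 1 higher and 9 lower; Fos lost its call when 2D culture 1, 2 or 3 was left out or total library size was used (edgeR adjusted p = 0.0764, 0.0673, 0.0826 and 0.0551). Their part in the level of Sgk1 was not tested.

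Glul (gene ID 24957), glutamine synthetase, was the single gene of the 9 that fell. It had 10.9, 8.65 and 6.39 CPM in organoids, against 42.9, 44.3 and 40.3 CPM in 2D culture. The groups were far apart, and the highest organoid stood well below the lowest 2D culture. Its log2 fold change was -2.30 ± 0.28 (95% interval -2.96 to -1.63, edgeR adjusted p = 0.00245), a level 4.91-fold lower in organoids, and all 14 alternatives called it lower (-2.95 to -2.13). Of 13 other genes that make, use or carry glutamine and glutamate 1 rose, 3 fell and 9 did not pass, with a median of -0.82. Shares called were 7.69% higher and 23.1% lower, against 14.9% and 12.6% of all tested genes. Gpt2, a mitochondrial alanine transaminase, rose by 1.68 ± 0.27, to 53.8 ± 14.3 CPM in organoids against 16.8 ± 1.58 CPM in 2D culture. Aldh18a1, which starts proline synthesis from glutamate, had a log2 fold change of -1.21 ± 0.31 and Got1, a transaminase, one of -0.95 ± 0.29 (edgeR adjusted p = 0.0491, and 0.0558 and 0.0861 without organoid 2 or 3). Without any of 2D culture 1, 2 and 3 none of the genes of this list was called lower, and without organoid 1 and without organoid 3 the counts were 1 and 5, with total library size 6. Gpt2 lost its call without 2D culture 1 or 3 (edgeR adjusted p = 0.0514 and 0.0502).

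Mt1 (gene ID 24567), a small cysteine-rich protein that binds zinc and copper, had 17.4, 110 and 10.03 CPM in organoid 1, 2 and 3, against 2.94, 3.97 and 3.68 CPM in 2D culture. All organoids were above all 2D cultures, and organoid 2 was 11-fold above organoid 3. The log2 fold change was 3.70 ± 0.94 (95% interval 1.45 to 5.94, edgeR adjusted p = 0.029), and 2.00 without organoid 2 (edgeR adjusted p = 0.0113). It did not pass without 2D culture 1, 2 or 3 (edgeR adjusted p = 0.118, 0.101 and 0.108) or with limma-voom (adjusted p = 0.0991; range over alternatives 3.63e-05 to 0.118). Mt2A, the neighbouring metallothionein gene, had 1.70, 10.97 and 1.28 CPM in organoids, against 0.669, 1.14 and 1.219 CPM in 2D culture. Organoid 2 was again the high library, and Mt2A did not pass (log2 fold change 2.21 ± 1.005, edgeR adjusted p = 0.149). Without organoid 2 its log2 fold change was 0.62 (edgeR adjusted p = 0.465). Its counts were fractional in 5 libraries, and those of Mt2A and Mt1m added up to whole numbers in all 6 (32, 199 and 27 in organoids and 27, 45 and 44 in 2D culture), so that some reads were shared between these 2 genes.

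Among 11 tested genes of metal handling 3 rose and 8 did not pass. That is 27.3% higher and 0% lower, against 14.9% and 12.6% of all tested genes. Among organoids, 7 of the 11, Mt2A included, were highest in organoid 2. How often tested genes of every kind peaked in organoid 2 was not counted, so whether this share is unusual was not tested. Outside this list, Zbtb16, Ddit4 and Klf9 also peaked in organoid 2, while Nr3c1, Tsc22d3, Fkbp5 and Sgk1 peaked in organoid 3 and Glul in organoid 1. The zinc importers Slc39a8 and Slc39a14 rose by 3.99 ± 0.49 and 1.95 ± 0.22. Slc39a14 had 63.4, 80.0 and 62.6 CPM in organoids, highest in organoid 2, against 18.7, 18.6 and 16.03 CPM in 2D culture. Slc39a8 had 148, 41.8 and 107 CPM in organoids, lowest in organoid 2, against 6.28, 5.93 and 6.47 CPM in 2D culture. The third gene that rose was Ftl1, ferritin light chain, highest in organoid 2 at 13783, 33161 and 19457 CPM in organoids, against 8054, 7771 and 7524 CPM in 2D culture, with fractional counts in all 6 libraries. Slc30a1, the zinc exporter that the metal-sensing factor MTF1 induces, had 0.471, 0.240 and 0 CPM in organoids and 1.38, 2.05 and 2.23 CPM in 2D culture and did not pass (edgeR adjusted p = 0.117). Mtf1 itself had 12.8, 6.07 and 26.8 CPM in organoids and 18.0, 15.5 and 16.2 CPM in 2D culture (edgeR adjusted p = 0.888). Without any of 2D culture 1, 2 and 3, 2 genes rose, and with total library size 2 rose and 2 fell.

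The windows before Mt1 and Mt2A are shown because both genes peaked in the same library. Capitals mark the metal response core (TGCGCNC or TGCACNC, either strand). Both sequences are from RefSeq (GRCr8, minus strand, 5′ to 3′), Mt1 at chr19:10832976-10833225 and Mt2A at chr19:10838709-10838958, and end at the base before the start.
Mt1: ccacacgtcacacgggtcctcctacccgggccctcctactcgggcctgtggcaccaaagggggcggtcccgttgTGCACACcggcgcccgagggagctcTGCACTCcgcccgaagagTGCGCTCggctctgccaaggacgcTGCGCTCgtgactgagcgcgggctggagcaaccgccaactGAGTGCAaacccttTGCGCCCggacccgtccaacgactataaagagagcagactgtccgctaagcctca
Mt2A: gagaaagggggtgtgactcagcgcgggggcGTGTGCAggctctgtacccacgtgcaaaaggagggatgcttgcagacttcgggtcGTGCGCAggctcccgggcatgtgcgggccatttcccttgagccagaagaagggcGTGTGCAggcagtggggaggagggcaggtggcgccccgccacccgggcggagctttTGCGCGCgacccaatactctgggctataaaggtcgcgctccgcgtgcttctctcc
Mt1 holds 6 separate matches, from 176 to 55 bases before the start, and Mt2A holds 4, from 220 to 55. Among all 33465 windows 0.0269% hold at least 6 matches and 0.263% hold at least 4, while 20.6% hold at least 1. A match is a description of the letters and not a site shown to be bound.

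**Figure D3:**
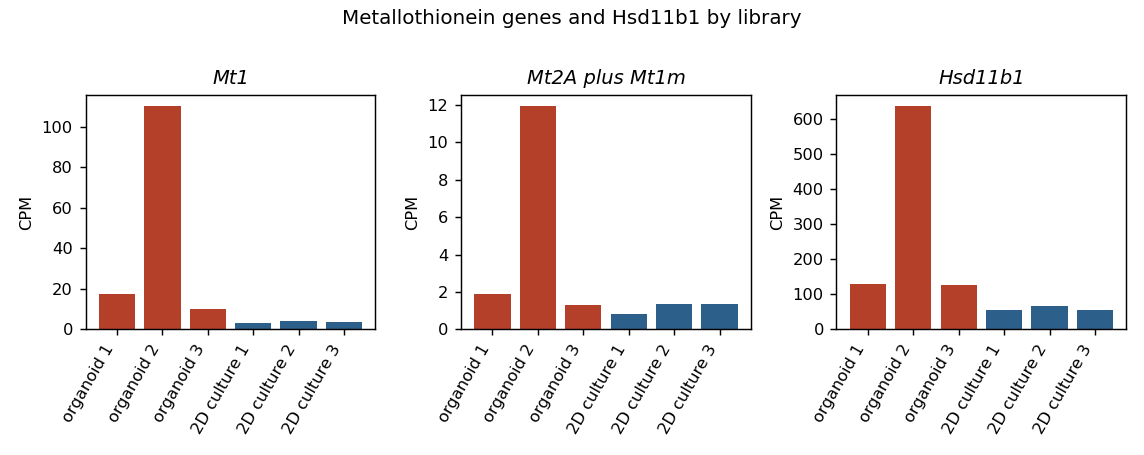
CPM by library (bars from 0) of Mt1, of Mt2A and Mt1m added together, and of Hsd11b1; organoids are left and 2D cultures right. Organoid 2 is the tallest bar in each panel, at 110, 11.96 and 638 CPM.

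The organoids ranked differently from gene to gene. Organoid 3 was the highest organoid for Nr3c1, Tsc22d3, Fkbp5 and Sgk1, organoid 2 for Zbtb16, Ddit4, Klf9 and Mt1, and organoid 1 for Glul. Relative to the 2D culture mean, organoid 3 stood at 2.89-fold for Tsc22d3, 0.969-fold for Fkbp5 and 6.83-fold for Zbtb16. In organoid 2 the same 3 genes stood at 1.18-fold, 0.567-fold and 73.8-fold, and in organoid 1 at 1.93-fold, 0.236-fold and 31.5-fold. Among organoids the SD of log2 CPM was 0.144 for Ddit4 and 0.314 for Klf9, against 1.70 for Zbtb16 and 1.81 for Mt1, with a median of 0.689 over all tested genes. In 2D culture the SD of the 9 genes ran from 0.0600 to 0.322, with a median of 0.137 over all tested genes.

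**Figure D4:**
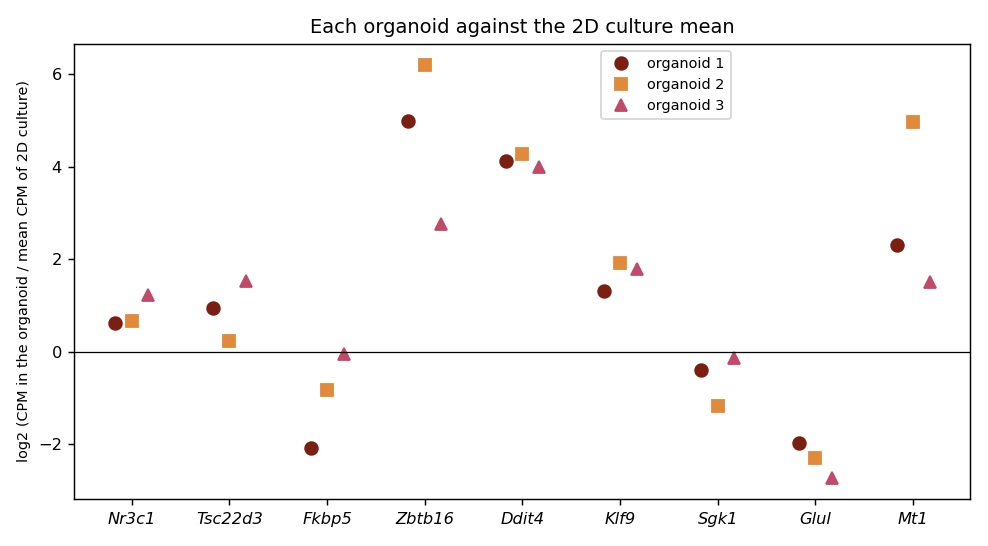
Level of each of the 9 genes in each organoid relative to the mean of the 3 2D cultures, on a log2 scale; 0 is the 2D culture mean. The 3 organoids lie together for Ddit4, Klf9 and Glul and far apart for Zbtb16, Mt1 and Fkbp5, and their order changes between genes.

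A longer list of genes that glucocorticoids induce in other cells was uneven in the same way. Of its 36 genes 35 were in the files and 30 were tested: 10 rose, 4 fell and 16 did not pass, with a median log2 fold change of 1.06, also with Il1r2, which had 0 counts in organoids, set at its bound. The list had 33.3% higher and 13.3% lower, against 14.9% and 12.6% of all tested genes. Tgm2, a protein crosslinking enzyme, had 130, 37.1 and 77.1 CPM in organoids, against 1.01, 0.703 and 0.588 CPM in 2D culture, and rose by 6.72 ± 0.60. Foxo3 had 216, 166 and 145 CPM in organoids, against 13.9, 13.0 and 10.6 CPM in 2D culture. Per1, a clock gene with a direct receptor site in other cells, had 25.4, 20.1 and 35.1 CPM in organoids and 11.3, 8.56 and 8.51 CPM in 2D culture, with no overlap (log2 fold change 1.504 ± 0.32, edgeR adjusted p = 0.0163), and lost its call without 2D culture 1, 2 or 3 (edgeR adjusted p = 0.0671, 0.0898 and 0.096) and with total library size (0.101, range over alternatives 0.000168 to 0.101). Cdkn1c, a cell cycle inhibitor, rose as well, with organoid 2 highest, at 122, 364 and 125 CPM in organoids and 18.1, 21.4 and 17.3 CPM in 2D culture.

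Against these, Dusp1, the phosphatase through which glucocorticoids damp MAP kinases, fell: it had 37.6, 20.1 and 26.5 CPM in organoids, against 121, 103 and 105 CPM in 2D culture (log2 fold change -1.97 ± 0.28, edgeR adjusted p = 0.0042). Zfp36, a protein that destabilises inflammatory mRNAs, rose by 1.32 ± 0.19. Timp4, a protease inhibitor, stood 93.1-fold lower in organoids on a single count (95% exact interval by counting error 16.5 to 3698). Il1r2, a decoy receptor for interleukin 1, had 0 counts in organoids and was at least 6.73-fold lower, taking 3 counts over the group. The 5 genes not tested (Hif3a, Tat, Pck1, Lcn2 and Sult1a1) include Tat and Pck1, classic targets in liver, which had 0 counts in every library. Leaving out any single 2D culture gave 7 higher and 1 lower, while scaling by total library size gave 7 of each.

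Genes that glucocorticoids repress in inflammation were followed too. Of 18, 10 were tested, 5 fell and 5 did not pass, with a median log2 fold change of -2.26. Set beside all tested genes, of which 12.6% fell and 14.9% rose, the share that fell was higher, and none rose. Ccl7, a chemokine, had 0.0589, 0.601 and 0 CPM in organoids, against 5.27, 5.96 and 6.65 CPM in 2D culture (log2 fold change -4.76 ± 1.35), and Icam1, a leukocyte adhesion molecule, 22.9, 10.5 and 15.5 CPM in organoids, against 98.5, 89.1 and 98.8 CPM in 2D culture (log2 fold change -2.55 ± 0.32). Csf1, Cxcl1 and Ccl2 made up the others that fell. Ptgs2, the inducible cyclooxygenase, had 64.8, 13.5 and 12.7 CPM in organoids and 35, 24.7 and 29.4 CPM in 2D culture, with overlapping groups (edgeR adjusted p = 0.979). Tnf, Cxcl2 and Csf2 had 0 counts in every library of both groups, and Il1b had 2 counts in 2D culture 1 and 0 elsewhere. The number that fell was 3 without any of 2D culture 1, 2 and 3, and Ccl7 lost its call there and without organoid 1 (edgeR adjusted p = 0.13, 0.13, 0.14 and 0.0818). Organoid 2 held 10 of the 11 organoid counts of Ccl7, and without it the log2 fold change was -7.52 (edgeR adjusted p = 0.00422). Mmp9, a matrix protease, had 2.06, 0 and 7.43 CPM in organoids and 0.398, 1.71 and 1.02 CPM in 2D culture, with overlapping groups (log2 fold change 1.598 ± 1.56, edgeR adjusted p = 0.486).

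Close relatives of the 9 genes moved in their own ways. Of 10 tested paralogs 4 rose (Ddit4l, Klf13, Sgk3 and Tsc22d4), 1 fell (Fkbp4) and 5 did not pass. Tsc22d4 had 184, 96.7 and 126 CPM in organoids, against 19.6, 23.1 and 16.96 CPM in 2D culture (log2 fold change 2.77 ± 0.30), whereas Tsc22d1, with fractional counts in all 6 libraries, had 288, 115 and 255 CPM in organoids and 250, 229 and 225 CPM in 2D culture (log2 fold change -0.10 ± 0.35, edgeR adjusted p = 0.865). The number that fell was 2 without organoid 1, without organoid 3 and with total library size.

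**Figure D5:**
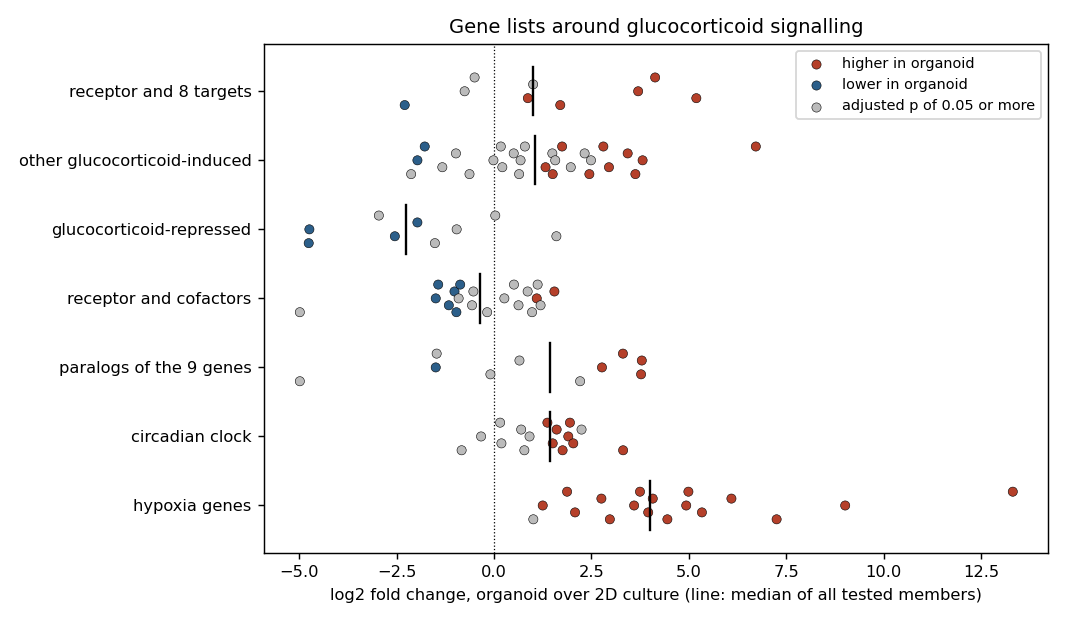
Fitted log2 fold change, organoid over 2D culture, of the tested genes in 7 lists (1 point per gene, coloured by the edgeR call, spread vertically for legibility; black lines are medians over all tested genes of a list). Il1r2, Timp4 and Ccl2, which had 0 or 1 count in organoids, are not drawn; hypoxia genes lie to the right of 0, and genes repressed by glucocorticoids mostly to the left.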

How the data were processed

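Messenger RNA was sequenced from 3 organoid and 3 2D culture libraries, grouped and numbered by their titles. Per the labels' protocols, RNA was isolated using Trizol, and mRNA libraries followed the protocols of the DNBSEQ platform. The authors deposited expected counts per gene (estimated counts, not normalised), 1 table per library, made with tools that, per the submitters' processing notes, include RSEM, Bowtie2, HISAT, HISAT2 and DESeq2 (no versions). The build, annotation and strandedness are not given in the sources consulted.

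Counts were rounded and analysed in R 4.3.3. The filter was filterByExpr with a minimum count of 10, scaling was by TMM, and the groups were compared with edgeR 4.0.16 (robust quasi-likelihood F-test, Benjamini-Hochberg adjustment over all 13052 genes, threshold 0.05). SE was derived from F as |log2 fold change| divided by its square root. The steps were tested on simulated counts. Alternatives were total library size, DESeq2 size factors, DESeq2 1.42.0, limma 3.58.1 voom with and without group weights, 2 filters, a replicate block and leaving out each library (14 settings). Replicates of a group all differed by more than sampling noise (lowest chi-square 9.1 per degree of freedom). CPM are not length-corrected, so levels are compared between libraries and not between genes. Intervals and limits on counts cover counting error only.

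The members and lists were chosen with earlier results of these data known. Lists (276 entries with the 9 genes) are described by counts and medians without a set test. Named genes are the 9, up to 2 called genes of at least 1 CPM per list and direction with the largest change, and 8 fixed genes (Nr3c2, Hsd11b1, Hsd11b2, Per1, Dusp1, Mt2A, Fkbp4, Tsc22d1), plus the 3 genes most like Nr3c1 and Tsc22d3. Other genes named, such as Cdkn1c, Zfp36, Il1r2, Icam1, Ptgs2, Sgk3, Tsc22d4, Mtf1, Slc30a1, Rps6kb1, Ftl1, Mmp9 and Col1a1, were chosen after their values were seen. Promoter sequences come from a RefSeq table of GRCr8, which held 8 of the 9 genes. Some genes of the lists are not reported here by name.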

Additional observations from a re-analysis of the deposited data

How the results depend on the processing

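Of the 9 genes, Ddit4 and Glul kept direction and call under all 14 alternatives, and Fkbp5 kept its direction with no call; none of the 9 changed direction. Genes called higher numbered 1944 (703 to 2747 when 1 library was left out, 1063 with total library size), and genes called lower 1650 (399 to 2574 when 1 library was left out, 3529 with total library size, 2478 with limma-voom). Among the 9 genes 5 were called higher (1 to 6 when 1 library was left out, 3 with total library size, 3 with limma-voom) and 1 lower (1 in each leave-out, 2 with total library size). Over all lists other than markers 50 genes were called higher (34 to 59) and 29 lower (10 to 38 when 1 library was left out, 48 with total library size). Tsc22d1, which did not pass, changed sign without organoid 2 (log2 fold change -0.31 to 0.26 when 1 library was left out). The causes were not tested. The minimum count of 50 removed Zbtb16, so that setting gave it no value.

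Same-numbered organoid and 2D libraries correlated in their deviations by 0.0606, 0.187 and 0.0207. Pairs of unlike number were not set beside these values, so they do not tell if same-numbered libraries share an origin. With the replicate number as a block 1441 genes were higher and 1289 lower, 4 of the 9 genes were higher and 1 lower, and over the lists 47 were higher and 27 lower; Nr3c1 was the member not called (edgeR adjusted p = 0.0959). At these depths Zbtb16 in 2D culture rests on 5 to 8 counts per library.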
